A study of Mus musculus with 2 samples.

Results

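This report describes 10 genes of protein folding and stress signalling in the endoplasmic reticulum (ER): Hspa5, Hsp90b1, Calr, Canx, Pdia3, Pdia4, Pdia6, Xbp1, Dnajb9 and Herpud1. They were chosen by gene symbol from a list of ER chaperones and targets of the transcription factor Xbp1, and all 10 have 1 row each among the 26037 rows of the deposited table. The study compared 1 library labelled MMP9_KO with 1 library labelled Control. Both came from bone marrow cells of C57BL/6 mice aged 6 to 8 weeks, grown in 10% serum with M-CSF at 5 ng/ml, kept for 3 days in M-CSF at 30 ng/ml and treated for 3 days with RANKL, the cytokine that turns macrophages into bone-resorbing osteoclasts. MMP9, a matrix-degrading protease, is made in large amounts by osteoclasts. The column headings add "sh" to the knockout and "NCsh" to the control, letters the labels do not explain, so it is not known here whether the gene was removed or its RNA knocked down. With n = 1 in each group no test between the groups was possible, and every difference below lacks a replicate check.

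The ER folds proteins that enter the secretory pathway. Chaperones such as BiP, calnexin and calreticulin hold unfolded chains, protein disulfide isomerases form their disulfide bonds, and chains that fail to fold are sent back to the cytosol for degradation. When unfolded chains accumulate, the sensors IRE1, ATF6 and PERK start the unfolded protein response. IRE1 cuts Xbp1 mRNA so that an active transcription factor is made, and Xbp1 and ATF6 raise the genes of chaperones and of the degradation machinery, whereas PERK acts through the factor ATF4. Osteoclasts secrete large amounts of proteases, and in mice the IRE1 and Xbp1 branch is known to act in osteoclast formation.

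Of the 10 genes, 1 (Herpud1) exceeded the control by 2-fold or more, 0 fell short of it by as much and 9 were within 2-fold. Herpud1 encodes an ER membrane protein of ER-associated degradation, and its level was 3.00 times that of the control. Hspa5, which encodes the chaperone BiP, was at 0.918 times the control level, and Hsp90b1, which encodes the chaperone endoplasmin, at 1.04 times. Calr, Xbp1 and Dnajb9 lay lowest, at 0.648, 0.679 and 0.701 times the control level. Among all 11126 genes compared, 4.0% passed 2-fold upwards and 9.58% downwards, so 1 higher and 0 lower gene among 10 says nothing particular of the group. That background split depends on scaling, with 6.06% higher and 6.15% lower when both libraries are given equal sums. A gene was compared when its mean over both libraries was at least 1, and all 10 passed this filter in each library alone. Counts past 2-fold use levels with a pseudocount of 1 added, while ratios and folds in the text have none.

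The stress response is known to act on chaperone genes through short promoter elements. The sequences are shown first because the group divides by exact matches to these elements. Near matches were not searched for, so a gene may hold more sites than are counted. The promoters are those of RefSeq on GRCm38.p6, from 250 bases before to 50 after the start of transcription, and all 10 genes had 1. Both strands were searched for the exact letters of each motif. Since these elements are known from chaperone genes, the shares given below describe the promoters and are not a test of enrichment. The ER stress element, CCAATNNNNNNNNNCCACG, where N is any base, is in 39 of 32851 promoters (0.119%) and in 5 of the 10 genes: Hspa5, Hsp90b1, Calr, Canx and Pdia6. These matches are given 5′ to 3′ on the strand that reads as the element, with its fixed letters in capitals.
Hspa5, chr2:34772025-34772043, plus strand: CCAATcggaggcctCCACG
Hsp90b1, chr10:86705638-86705656, minus strand: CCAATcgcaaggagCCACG
Hsp90b1, chr10:86705533-86705551, plus strand: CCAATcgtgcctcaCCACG
Calr, chr8:84847075-84847093, plus strand: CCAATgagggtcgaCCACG
Canx, chr11:50325800-50325818, minus strand: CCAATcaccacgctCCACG
Pdia6, chr12:17266491-17266509, plus strand: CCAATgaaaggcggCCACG

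Herpud1 was the only member of the group with the second form, ER stress element II, ATTGGNCCACG, which is in 12 of 32851 promoters (0.0365%). Its first base is at position -52, counted from the start.
Herpud1, chr8:94386377-94386387, plus strand: ATTGGgCCACG

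The core of the unfolded protein response element, TGACGTG, is in 2.01% of promoters and, among the 10 genes, only in Hspa5, at position -157. The short motifs at the ends of the element are common: CCAAT is in 37.4% of promoters and in 9 of the 10 genes, and CCACG in 32.8% and in 8 of the 10. Every ER stress element counted above holds both of them and so overlaps with them. Pdia3, Pdia4, Xbp1 and Dnajb9 have none of the 3 longer motifs in this window, which says only that these exact letters are not there. The 250 bases before the start are printed for 4 genes, with the letters of the longer motifs in capitals: Herpud1, the gene past 2-fold, Hspa5, whose BiP product is the usual readout of the response, and Calr and Pdia6, which carry the same element and had the lowest ratio of the group and the highest after Herpud1.
Herpud1, chr8:94386179-94386428, plus strand: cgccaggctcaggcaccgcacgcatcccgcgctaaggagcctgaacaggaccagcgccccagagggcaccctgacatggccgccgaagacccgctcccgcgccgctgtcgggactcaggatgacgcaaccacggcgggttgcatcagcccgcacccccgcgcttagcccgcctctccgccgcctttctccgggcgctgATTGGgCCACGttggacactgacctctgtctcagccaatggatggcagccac
Hspa5, chr2:34771840-34772089, plus strand: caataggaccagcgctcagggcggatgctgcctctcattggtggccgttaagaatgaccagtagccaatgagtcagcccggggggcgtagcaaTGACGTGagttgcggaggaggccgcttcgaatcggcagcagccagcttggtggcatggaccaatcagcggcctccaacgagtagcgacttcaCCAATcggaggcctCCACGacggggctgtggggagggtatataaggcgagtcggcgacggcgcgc
Calr, chr8:84846932-84847181, minus strand: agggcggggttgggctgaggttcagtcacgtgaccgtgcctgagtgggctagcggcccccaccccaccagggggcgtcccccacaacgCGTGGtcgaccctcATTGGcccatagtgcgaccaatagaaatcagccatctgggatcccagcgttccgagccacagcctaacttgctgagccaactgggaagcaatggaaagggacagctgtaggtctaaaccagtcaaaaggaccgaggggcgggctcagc
Pdia6, chr12:17266339-17266588, plus strand: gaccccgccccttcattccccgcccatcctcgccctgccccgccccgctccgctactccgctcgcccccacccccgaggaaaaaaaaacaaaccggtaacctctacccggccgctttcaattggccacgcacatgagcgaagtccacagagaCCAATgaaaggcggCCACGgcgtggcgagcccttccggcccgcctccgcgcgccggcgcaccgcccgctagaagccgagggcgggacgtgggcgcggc

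**Figure D1:**
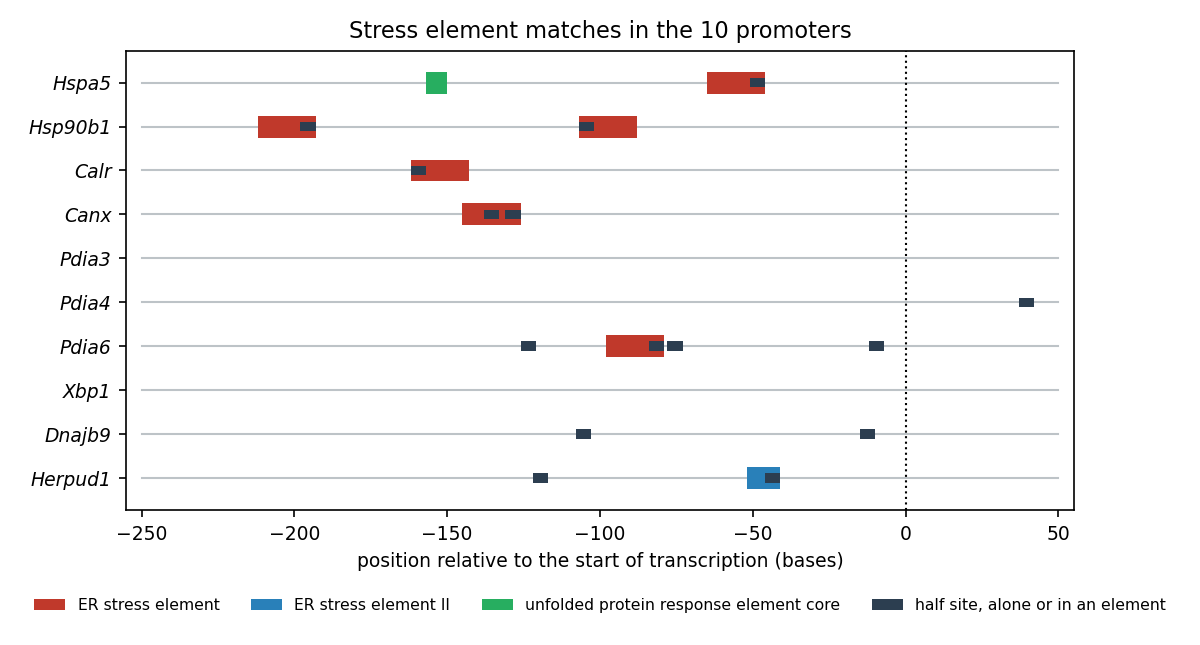
Motif matches in the 10 promoters, drawn by distance in bases from the start of transcription (dotted line). Red bars are ER stress elements, the blue bar is element II of Herpud1 at -52, the green bar is the unfolded protein response element core of Hspa5 at -157, and small dark bars are matches to the short motif CCACG. Pdia3 and Xbp1 show none of these.

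The libraries held 17741432 reads in the knockout and 20678441 in the control, and the 10 genes took 117351 of them in the knockout and 120549 in the control. This is 0.661% of the knockout reads (95% exact binomial interval 0.658 to 0.665) and 0.583% of the control reads (0.580 to 0.586). Levels are normalised read counts, that is reads times 1 factor per library, and these sum to 421448 in the knockout and 513811 in the control. On this scale the 10 genes summed to 2788 in the knockout and 2995 in the control, so the group's share of reads was higher in the knockout while its summed level was lower. Mmp9 stood at 3.87 in the knockout and 139 in the control. All 8 osteoclast markers with a row were past 2-fold downwards, with a summed level of 376 in the knockout and 6577 in the control, among them Ctsk (42.9 in the knockout, 3745 in the control) and Acp5 (114 in the knockout, 1828 in the control). Of 7 macrophage markers 4 were higher and 1 lower, with sums of 1276 in the knockout and 969 in the control. Emr1 (50.5 in the knockout, 2.46 in the control) and Cd14 (166 in the knockout, 15.5 in the control) were among the higher ones. Fcgr1 and Mertk, listed here because they are at 0, had no read in the control. In the knockout the lowest of the 7 macrophage markers was at 0.0238, under the 0.0713 that a count of 0 allows. Markers of B, T and NK cells, neutrophils and stroma summed to at most 0.404 in the knockout and 0.323 in the control. Of 6 plasma cell markers Sdc1, which holds nearly all of their sum, was at 3.33 in the knockout and 44.3 in the control, while Igj and Pou2af1 had no read in either library. The part that these differences in osteoclast and macrophage markers play in the results below was not tested. In bulk RNA, fewer cells of a type and less RNA per cell cannot be told apart.

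Levels of different genes are compared per kilobase of the longest coding transcript, since the deposited values were not divided by length. On this scale Calr was highest in both libraries, at 212 in the knockout and 328 in the control. Hspa5 came next at 180 in the knockout and 196 in the control. Hsp90b1 (148 in the knockout, 142 in the control) and Pdia3 (137 in the knockout, 124 in the control) came after it. All 4 hold these places in either library. Pdia6 followed in the knockout at 127, with Canx below it at 96.3, whereas in the control Canx, at 108, stood above Pdia6, at 87.9. A lower tier held Pdia4 (26.5 in the knockout, 24.3 in the control), Herpud1 (26.3 in the knockout, 8.78 in the control) and Xbp1 (24.6 in the knockout, 36.1 in the control). Dnajb9 was last at 3.02 in the knockout and 4.31 in the control. In the knockout Pdia4, Herpud1 and Xbp1 lay within 2 units of each other, whereas in the control Xbp1 stood above Pdia4 and Herpud1 below it. Of the 45 pairs of genes, 42 had the same order in both libraries.

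**Figure D2:**
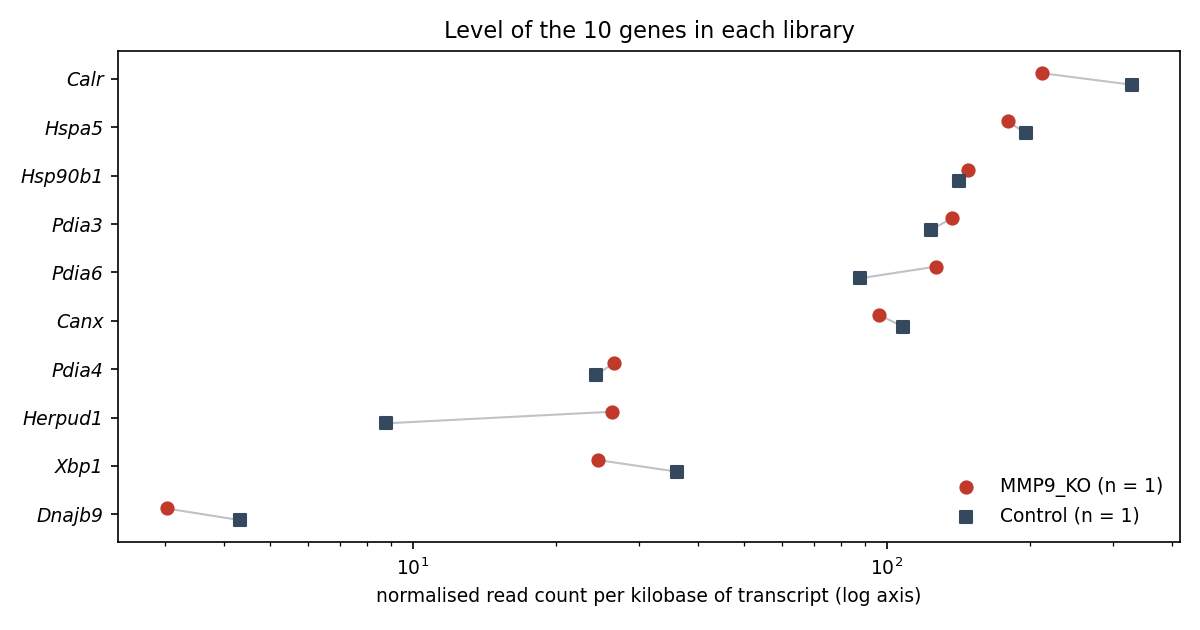
Normalised read count per kilobase of transcript (log axis) of the 10 genes, with the knockout as red circles and the control as dark squares, 1 library each. Points of a gene lie close together for most genes, and the widest gap is that of Herpud1, at 26.3 in the knockout and 8.78 in the control.

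Of the BiP and endoplasmin system, Hspa5 and Hsp90b1 lay close to the control and the co-chaperone gene Dnajb9 further below it. Hspa5 (ENSMUSG00000026864, chromosome 2, plus strand, 34771970 to 34777547 on GRCm38) encodes BiP, the ER member of the heat shock protein 70 family. It had 27835 reads in the knockout and 28975 in the control, with levels of 661 in the knockout and 720 in the control. The ratio of knockout to control was 0.918, with a 95% counting interval of 0.903 to 0.934. Its log2 ratio, taken after adding a pseudocount of 1 to each level, was -0.12, which is 0.04 above the median of all compared genes (-0.16), and 53.1% of compared genes had a lower one. Hsp90b1 (ENSMUSG00000020048, chromosome 10, minus strand, 86690209 to 86705509) encodes endoplasmin, the ER form of heat shock protein 90. Its level was 419 in the knockout and 402 in the control, a ratio of 1.04 (1.02 to 1.06). Exons of Gm15344 on the same strand share 84 bases with Hsp90b1, and that gene had levels of 18.5 in the knockout and 20 in the control. The opposite-strand transcript 1810014B01Rik shares 415 bases, and since the use of strand is not known its reads cannot be told apart from those of Hsp90b1. Dnajb9 (ENSMUSG00000014905, chromosome 12, minus strand, 44205559 to 44210326) encodes a J-domain co-chaperone of BiP and is a known Xbp1 target. It had 313 reads in the knockout and 427 in the control, with levels of 7.44 in the knockout and 10.6 in the control, and with a ratio of 0.701 and the widest relative interval of the group (0.604 to 0.813). The sign of the Hspa5 ratio depended on scaling, with a log2 ratio of 0.06 when the median of all genes was set to 0 and 0.16 when both libraries were given equal sums. Dnajb9 kept a negative log2 ratio, of -0.30 and -0.21 in the same settings.

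The lectin chaperones, which bind sugar chains on new glycoproteins, were both below the control as deposited but by unequal amounts, and under the whole-library scalings only Calr was. Calr (ENSMUSG00000003814, chromosome 8, minus strand, 84841850 to 84846934) encodes calreticulin, the soluble one, and had 19524 reads in the knockout and 28793 in the control. Its levels were 464 in the knockout and 715 in the control, a ratio of 0.648 (0.637 to 0.660), and its log2 ratio of -0.62 was the lowest of the 10. Among all compared genes 21.3% lay lower. Canx (ENSMUSG00000020368, chromosome 11, minus strand, 50293961 to 50325673) encodes calnexin, the membrane-bound one. Its levels were 412 in the knockout and 462 in the control, a ratio of 0.893 (0.874 to 0.911), and its log2 ratio of -0.16 was that of the median gene. With the median set to 0 and with equal sums Canx turned to 0.02 and 0.12, while Calr stayed at -0.45 and -0.34. Within a library, where scaling plays no part, Calr had 701 reads per 1000 Hspa5 reads in the knockout and 994 in the control. Canx had 623 in the knockout and 641 in the control.

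The 3 disulfide isomerases among the 10 genes had ratios above 1. Pdia6 (ENSMUSG00000020571, chromosome 12, plus strand, 17266545 to 17284770), an isomerase that also binds BiP, had 11644 reads in the knockout and 7693 in the control, with levels of 277 in the knockout and 191 in the control. The ratio of 1.45 (1.41 to 1.49) was the highest of the group after Herpud1, and 90.2% of compared genes had a lower log2 ratio than its 0.53. Pdia3 (ENSMUSG00000027248, chromosome 2, plus strand, 121413775 to 121438687) works with calnexin and calreticulin on glycoproteins and sits in the complex that loads peptides on MHC class I. Its levels were 380 in the knockout and 342 in the control, a ratio of 1.11 (1.09 to 1.14). Pdia4 (ENSMUSG00000025823, chromosome 6, minus strand, 47796141 to 47813430) is a further isomerase of the family and stood at 63.5 in the knockout and 58.3 in the control, a ratio of 1.09 (1.03 to 1.15). Opposite-strand exons of Atp6v1c2 and Catsper2 share 50 bases with Pdia6 and 18 with Pdia3, and the levels of these neighbours were at most 0.784 in the knockout and 1.07 in the control. These 3 isomerase genes kept a positive log2 ratio under each of the 9 alternative settings. Per 1000 Hspa5 reads, Pdia6 had 418 in the knockout and 266 in the control, Pdia3 had 575 in the knockout and 475 in the control, and Pdia4 had 96 in the knockout and 81 in the control. Pdia3, at a higher share in the knockout, and its partner Calr, at a lower one, therefore differed in direction.

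Xbp1 (ENSMUSG00000020484, chromosome 11, plus strand, 5520659 to 5525893) encodes the transcription factor that the IRE1 branch activates. It had 2201 reads in the knockout and 3097 in the control, with levels of 52.3 in the knockout and 77 in the control, a ratio of 0.679 (0.643 to 0.718). The log2 ratio was -0.55, or -0.39 relative to the median gene, and 25.2% of compared genes lay lower. It was -0.27 with equal sums and -0.27 after centring by base composition, and stayed below 0 under each of the 9 alternative settings. The table has 1 value per gene, so the cut and uncut forms of the mRNA are counted together and the activity of Xbp1 was not measured. Of the 10 genes, 5 had a log2 ratio below 0, Xbp1 and Dnajb9 among them, and 5 above 0, Pdia6 and Herpud1 among them. Which of them Xbp1 acted on in these cells was not tested.

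Herpud1 (ENSMUSG00000031770, chromosome 8, plus strand, 94386438 to 94395377) had 2165 reads in the knockout and 690 in the control. Its levels were 51.4 in the knockout and 17.1 in the control, a ratio of 3.00 (2.75 to 3.27). The log2 ratio of 1.53 was 1.69 above the median gene, and 251 of 11126 compared genes had a higher one. Against BiP of the same library, Herpud1 had 77.8 reads per 1000 Hspa5 reads in the knockout and 23.8 in the control. The next highest log2 ratio in the group was the 0.53 of Pdia6. Herpud1 stayed above 2-fold under each of the 9 alternative settings, with log2 ratios from 1.35 with a pseudocount of 5 to 1.81 with equal sums. A sequence search of the mouse transcripts found no other gene with 200 or more bases at 95% identity or above for it.

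**Figure D3:**
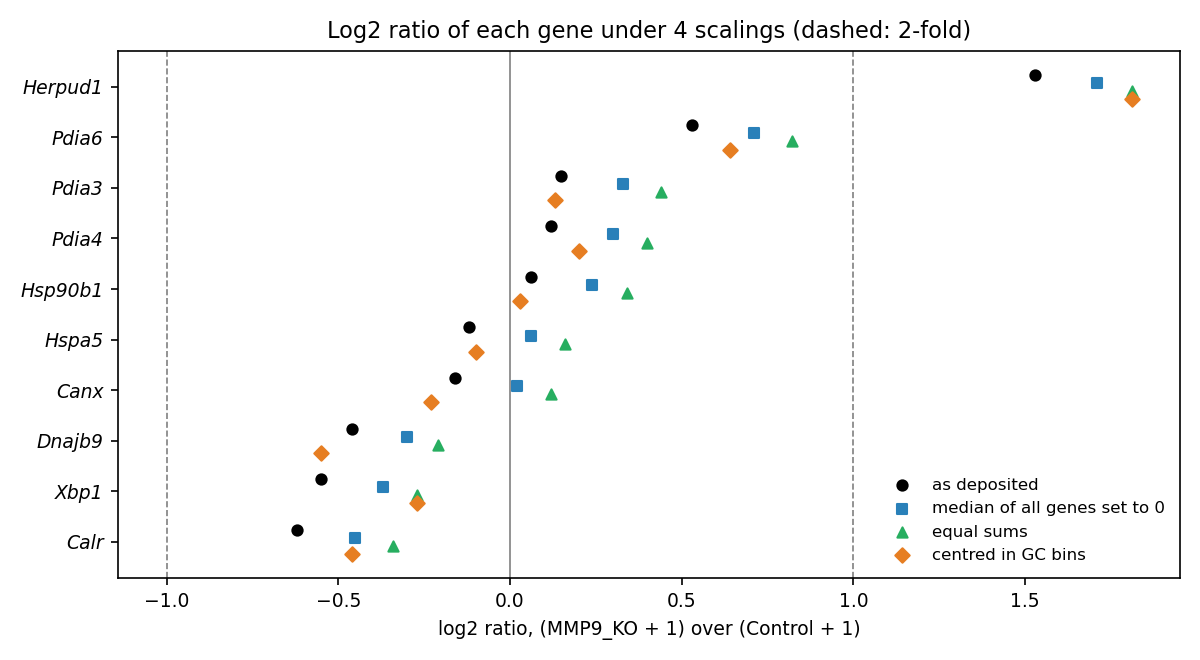
Log2 ratio of knockout over control for each of the 10 genes, with values as deposited (circles), with the median of all genes set to 0 (squares), with equal sums (triangles) and after centring in bins of GC content (diamonds). Herpud1 lies beyond the dashed 2-fold line in all 4, and Hspa5 and Canx lie below 0 as deposited and above it with the median set to 0 and with equal sums.

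As a group the 10 log2 ratios had a median of -0.03 and a mean of 0.05, and their SD over genes was 0.63, against a median of -0.16 for all compared genes. They ran from -0.62 to 1.53, or to 0.53 without Herpud1, and 6 lay above and 4 below the median gene. Across compared genes, which are not independent and share the 2 libraries, rank correlations (Spearman's rho) of the log2 ratio were -0.33 with the GC content of the transcript and 0.16 with its length. The 10 genes had GC contents of 40.6% to 53.0%, with a median of 47.2% against 49.9% for compared genes. After centring in bins of GC content Herpud1 was at 1.81, Pdia6 at 0.64, Calr at -0.46 and Hspa5 at -0.10.

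**Figure D4:**
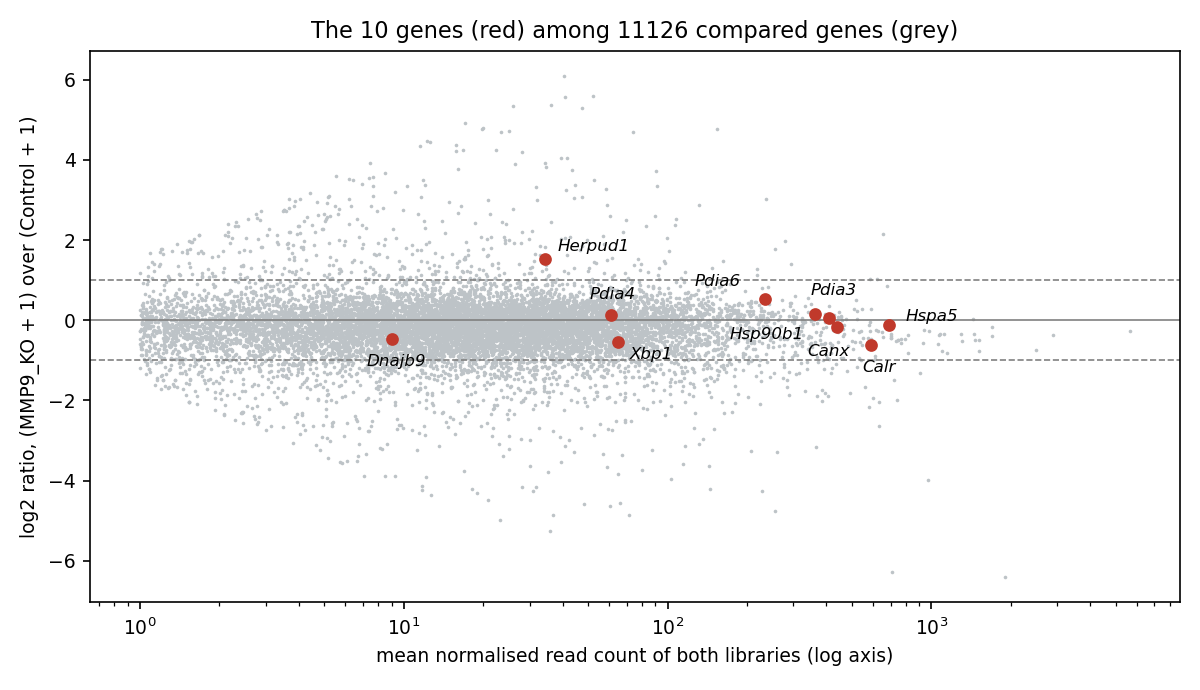
Log2 ratio of knockout over control against the mean level (log axis) for 11126 compared genes in grey, with the 10 genes in red and 2-fold as dashed lines. Herpud1 is the 1 red point beyond a dashed line, and Calr is the lowest red point at -0.62.

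Compared genes with the ER stress element had log2 ratios from -2.70 to 0.53, and those with element II from -1.04 to 1.53. As deposited most of the former lay below 0, as did the median of all compared genes (-0.16), and most of the latter above 0. What part the elements played was not tested. The ER stress element is in the promoter of 13 compared genes, with a median log2 ratio of -0.23. Of these 0 passed 2-fold upwards and 2 downwards, against 4.0% and 9.58% of all compared genes. The 8 of these 13 that are not among the 10 genes had a median of -0.28. The 2 lower ones, Adcy3 (1.92 in the knockout and 17.9 in the control) and Tdrd9 (0.499 in the knockout and 2.93 in the control), were named after their values were seen, and neither is in a gene list used here. ER stress element II is in 6 compared genes, with a median of 0.11. Herpud1 was the 1 higher gene among them, and Nucb1 (21.8 in the knockout, 46 in the control), named after its values were seen, the 1 lower. Beside the shares of all compared genes, counts in sets this small are not a result about either element. Dnajb11, a BiP co-chaperone with the same element that was also named after its values were seen, was at 89.6 in the knockout and 87.7 in the control.

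None of the 14 compared chaperones and co-chaperones outside the 10 genes passed 2-fold in either direction, against 4.0% upwards and 9.58% downwards among all compared genes, a background against which 0 or 1 gene in a list of this size is not a result about the list. Their log2 ratios ran from -0.89 to 0.32, with a median of -0.12 as deposited that turned to 0.05 with the median of all genes set to 0 and 0.15 with equal sums. Hyou1, a large chaperone that acts with BiP, was at 235 in the knockout and 224 in the control, a ratio of 1.05. Sdf2 (16.4 in the knockout, 30 in the control) and the prolyl isomerase gene Fkbp2 (5.32 in the knockout, 10.7 in the control) had the lowest log2 ratios. The Fkbp2 ratio without a pseudocount was just past 2-fold, at 2.01-fold lower (1.70 to 2.37). The 13 other disulfide isomerases and oxidases had a median of 0.32, with 1 gene past 2-fold upwards and 0 downwards. The higher one was Qsox1, a sulfhydryl oxidase, at 27.5 in the knockout and 7.48 in the control, 3.67-fold (3.23 to 4.19). P4hb, the classical protein disulfide isomerase, was at 747 in the knockout and 1108 in the control, a ratio of 0.674 (0.665 to 0.684). Ero1lb, which reoxidises isomerases, was at 26.2 in the knockout and 15.5 in the control, a ratio of 1.7 (1.54 to 1.88).

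Among 8 sensors and related ER-bound factors with their processing proteases, the median was -0.46, with 0 genes past 2-fold upwards and 2 downwards (4.0% and 9.58% of all compared genes). Ern1, which encodes IRE1, was at 16.3 in the knockout and 26 in the control, a ratio of 0.628 (0.569 to 0.692). Eif2ak3, which encodes PERK, was lower by 2.13-fold (1.93 to 2.36), at 14.3 in the knockout and 30.5 in the control. Its log2 ratio of -1.04 was near the threshold and fell short of 2-fold under 6 of the 9 alternatives, at -0.77 with equal sums. Creb3l2, an ER-bound transcription factor related to ATF6, was lower by 4.26-fold (3.79 to 4.8), at 8.5 in the knockout and 36.2 in the control. In the PERK and ATF4 arm 3 of 8 genes passed 2-fold upwards and 0 downwards (4.0% and 9.58% of all compared genes), and the median was 0.54. These 3 genes stayed past 2-fold under each of the 9 alternatives, and the other 5 were within 2-fold as deposited. Like the other lists, this one was chosen with earlier results of these data known, and the activity of PERK was not measured. Trib3, a pseudokinase gene induced by ATF4, was at 12 in the knockout and 1.27 in the control, 9.5-fold (7.12 to 12.9). The size of this difference is uncertain, since the control had 51 reads. The log2 ratio of Trib3 ran from 1.44 with a pseudocount of 5 to 3.15 with a pseudocount of 0.1. Chac1, which encodes a glutathione-degrading enzyme, was at 12.8 in the knockout and 3.35 in the control, 3.81-fold (3.15 to 4.64). Asns, the asparagine synthetase gene, named after its values were seen, was 2.5-fold higher, at 210 in the knockout and 83.9 in the control. Atf4 itself, the factor of this arm, was at 211 in the knockout and 160 in the control, a ratio of 1.32 (1.28 to 1.37). Ppp1r15a, named after its values were seen, had the lowest log2 ratio of the 8, at -0.17. It was at 12.9 in the knockout and 14.7 in the control, a ratio of 0.879 (0.781 to 0.989).

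Besides Herpud1, 16 genes of ER-associated degradation were compared, with 0 past 2-fold in either direction and a median of -0.22, or 0.06 with equal sums. Among all compared genes 4.0% passed 2-fold upwards and 9.58% downwards, so 0 or 1 among 16 is not a result about a list. Sel1l, the scaffold of the ubiquitin ligase complex, was at 119 in the knockout and 85.6 in the control, and Ube2g2, a ubiquitin-conjugating enzyme, at 28.8 in the knockout and 53.7 in the control. Herpud2, the paralogue of Herpud1, was at 21.3 in the knockout and 30.1 in the control, a ratio of 0.708 (0.648 to 0.772) against 3.00 for Herpud1. Among 16 genes of N-glycosylation and glycoprotein quality control 1 was lower, Dad1, a subunit of the oligosaccharyltransferase, at 25.9 in the knockout and 53.3 in the control (2.06-fold, 1.91 to 2.21). Its log2 ratio of -1.01 fell short of 2-fold under 5 of the 9 alternatives, at -0.74 with equal sums. The log2 ratios of these 16 genes ran from -1.01 to -0.02 as deposited, with a median of -0.23, or 0.05 with equal sums. Uggt1, which senses misfolded glycoproteins, was at 83.9 in the knockout and 86.9 in the control, and Edem1, which marks them for degradation, at 169 in the knockout and 305 in the control.

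None of the 16 genes of the translocon and signal peptidase passed 2-fold in either direction, against 4.0% upwards and 9.58% downwards among all compared genes. Their median was -0.36. Sec61a1, the channel subunit, was at 151 in the knockout and 187 in the control, and Ssr3, which associates with the channel, at 74.5 in the knockout and 139 in the control. Sec62, which helps post-translational import, was at 11.9 in the knockout and 20.1 in the control. The 16 compared genes of ER-to-Golgi transport also held 0 past 2-fold, with a median of -0.40. Against the share of all compared genes, 0 among 16 is not a result about either list. Sec13, a coat subunit, was at 20.4 in the knockout and 28.2 in the control. The cargo receptor genes Lman2 (75.8 in the knockout, 135 in the control) and Surf4 (69.4 in the knockout, 114 in the control) had the lowest ratios. Relative to the median gene, the median was 0.13 for the 10 genes, 0.71 for the PERK and ATF4 arm, 0.48 for the other isomerases and oxidases, 0.04 for the other chaperones and -0.06 for ER-associated degradation. It was -0.07 for N-glycosylation, -0.20 for the translocon, -0.24 for ER-to-Golgi transport and -0.30 for the sensors. No list was tested against others.

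**Figure D5:**
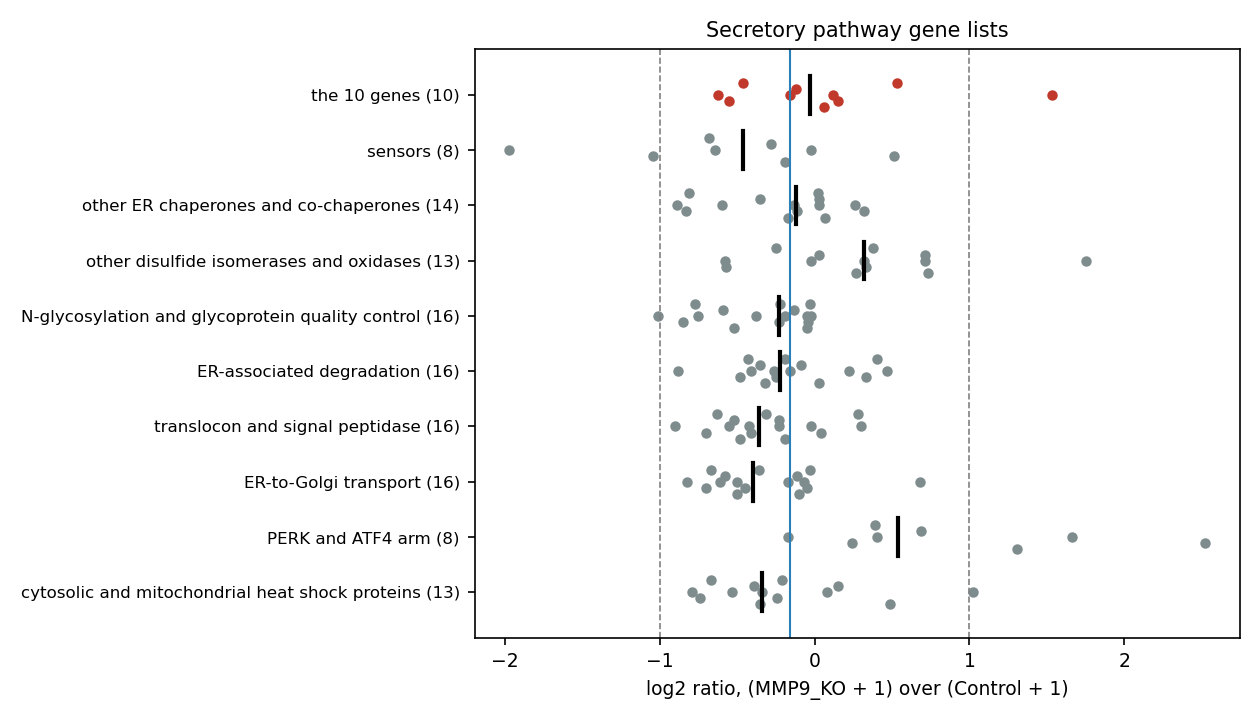
Log2 ratio of knockout over control for compared genes of each list (number in parentheses), with the list median as a black bar, the median of all compared genes as a blue line at -0.16 and 2-fold as dashed lines. The 10 genes are in red, and the PERK and ATF4 arm has 3 genes beyond the upper dashed line.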

How the data were processed

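RNA of 1 MMP9_KO and 1 Control library was sequenced. Reads were aligned with TopHat to mouse build mm9, per the submitters' processing notes; no source used here names the counter, annotation, strand use or normalisation. The authors' deposited values are log2 levels titled normalised RPKM. Converted from log2, 99.99% of values above 0 in each library lay within 0.05 of a whole multiple of 1 step (0.0238 in the knockout, 0.0248 in the control), so they were treated as read counts times 1 factor, not divided by length. A gene with no read held 0.9 of the step and was set to 0. A count of 0 allows a level of up to 0.0713 in the knockout and 0.0745 in the control (3 reads).

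The comparison used log2 of the knockout level plus 1 over the control level plus 1 for genes with a mean of at least 1. Ratios and folds in the text have no pseudocount and carry exact 95% binomial intervals on the reads, which cover counting error only, since the reads carry no molecular identifiers and are not independent molecules. No p-value was computed. The members, the 9 pathway lists, the thresholds and the motifs were chosen with earlier results of these data known. Named are Mmp9, the 10 genes, in each list the first gene and the 2 compared genes with the largest absolute log2 ratio, and the markers Ctsk, Acp5, Emr1 and Cd14. Other genes are named where the text says so, where a marker list is described, or as neighbours of the 10 genes. Genes were matched by symbol and, for 5 renamed genes of the lists and markers, by RefSeq synonym and Ensembl identifier. Positions, transcript length and GC content come from GENCODE M21 on GRCm38, another build than the authors', which matched 23607 genes and 96.2% of compared genes. Similar transcripts were searched with BLAST 2.17.0. Steps were tested on simulated reads with counting error alone, in which only genes at higher levels were changed. That test does not cover changes in weakly expressed genes or variation between replicates. Python 3.11.15, pandas 2.3.3 and scipy 1.17.1 were used. Alternatives were other pseudocounts, filters and scalings (30% of ratios and 5% of levels trimmed), and centring of log2 ratios within 20 bins, by GC content or by length. The planned protein comparison was not run.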

Additional observations from a re-analysis of the deposited data

How the results depend on the processing

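No paired analysis was possible because each group has a single library, so leaving out a replicate was not possible either. Herpud1 as the 1 higher gene and 0 lower genes among the 10 held under all 9 alternatives, while the share of all compared genes past 2-fold ran from 2.29% to 6.06% upwards and 5.42% to 11.9% downwards. The scalings moved log2 ratios by at most 0.29, so no gene farther from 0 could change sign under them. The median of the 10 genes was -0.03 as deposited, 0.05 by the mean, 0.15 with the median of all genes set to 0, 0.16 with a trimmed mean, 0.25 with equal sums, -0.04 when centred by GC content and 0.08 when centred by length. The median of all compared genes was -0.18 and -0.12 with pseudocounts of 0.1 and 5, -0.07 without a filter, 0.01 with a trimmed mean, 0.10 with equal sums and, by construction, 0.00 with the median set to 0 and when centred by GC content or length. Among all genes the numbers past 2-fold were 445 upwards and 1066 downwards as deposited, 255 and 603 with the pseudocount raised to 5, which by construction pulls weakly expressed genes towards 0, 674 and 684 with equal sums, and 543 and 671 when centred by GC content. The cause was not tested. Of 342 alternative values of 38 named genes, 180 stayed within the counting interval and 162 left it, and no gene past 2-fold reversed, but Eif2ak3 fell short of 2-fold under 6 of the 9 alternatives, Dad1 under 5 and Hsp90aa1 under 1. For the 9 lists no interval of the median was computed. The shift of each alternative median was set against the median of the counting interval bounds of the genes in the list. By this rule 44 alternative medians stayed within the bounds and 46 left them. Depth limits Dnajb9 most, with 313 reads in the knockout and 427 in the control.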

Other observations

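Of the 13 compared cytosolic and mitochondrial heat shock genes 1 passed 2-fold upwards and 0 downwards, against 4.0% and 9.58% of all compared genes. These counts are not a result about the list. Its median log2 ratio was -0.34, or -0.18 relative to the median gene, and -0.05 with equal sums. The higher gene was Hsp90aa1, a cytosolic relative of Hsp90b1, at 830 in the knockout and 409 in the control (2.03-fold, 1.99 to 2.07), and its log2 ratio fell short of 2-fold when centred by GC content (0.99). Hsp90b1 was at 419 in the knockout and 402 in the control. Hspa8, the constitutive cytosolic relative of Hspa5, was at 949 in the knockout and 1200 in the control, and Hspe1, a mitochondrial co-chaperonin gene, at 34.9 in the knockout and 61.3 in the control. The heat-inducible genes Hspa1a (0.594 in the knockout, 1.17 in the control) and Hspa1b (0.641 in the knockout, 1.62 in the control), named after their values were seen, were low in both libraries and are near-identical copies, so reads could be split between them. Ddit3, which encodes the stress factor CHOP, belongs to the PERK and ATF4 arm and was also named after its values were seen. It was at 3.82 in the knockout and 3.08 in the control, a ratio of 1.24 (0.976 to 1.58).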
